A study of Bos taurus with 6 samples.

Results

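RGS proteins (regulators of G protein signaling) were followed in cultured bovine granulosa cells (GC) that differed in plating density. The 10 genes RGS2, RGS3, RGS4, RGS5, RGS10, RGS12, RGS14, RGS16, RGS19 and RGS20 were taken by their gene symbol from the deposited array table. They are represented by 11 transcript clusters, the array's unit for a gene, of 26773 in the table, because RGS2 has a pair of them. The table carries 20 numbered RGS genes in all, and the other 10 are given for comparison further on.

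Primary GC were pooled from small to medium sized follicles of abattoir ovaries from cows whose cycle stage was not defined. For 9 days both densities were kept in the same serum-free alpha-MEM, to which androstenedione, FSH and IGF-1 had been added, and only the number of cells plated per well differed between normal density and high density. Each density had 3 cultures with 1 array each (Bovine Gene 1.0 ST Array), and the methods count the 6 as separate preparations of pooled cells. Whether pools shared donor cows is not stated, so the p-values measure the spread between these cultures.

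Most hormone receptors of GC, the FSH receptor and the LH receptor among them, act through heterotrimeric G proteins, whose alpha subunit is switched on by binding GTP. RGS proteins share a domain that speeds the hydrolysis of this GTP and so shortens the signal. The R4 subfamily (here RGS2, RGS3, RGS4, RGS5 and RGS16) holds mostly small proteins built around that domain, the R12 subfamily (RGS10, RGS12 and RGS14) includes large scaffold proteins, and the RZ subfamily (RGS19 and RGS20) acts on the Gi and Gz class of alpha subunits. RGS2 is known as a gene that ovarian follicles switch on around ovulation.

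RGS2 and RGS4 were up-regulated at high density (n = 3 cultures per density). RGS4 rose 2.25-fold, while the measured folds of the pair of RGS2 transcript clusters were 3.56 and 2.53, from normal density signals so weak that only lower bounds, at least 2.94-fold and at least 1.34-fold, can be set. None of the other 8 members was called, and their changes lay between −0.14 and 0.23 on the log2 scale. A transcript cluster is termed called when limma's p-value and its Benjamini-Hochberg adjusted p, taken over the whole table, are below 0.05 and the fold change exceeds 1.5 in size. By this rule 3 of 11 member clusters were called (27.3%), against 7.49% of all transcript clusters. All 3 were called up, against 3.97% of the table, and none was called down, against 3.51%. By the symbols of the array these clusters stand for 2 of the 10 genes, although the RGS2 pair belongs to different loci, as given below. The study had already reported RGS2 as up-regulated in these cultures. The median change was 0.12 over the 11 member clusters and 0.02 over the table.

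All signals are log2 values from the RMA procedure, and a change is the mean at high density minus the mean at normal density. As a mark of weak signal, the 95th percentile of the array's 82 control rows was used, a log2 signal of 4.62, and in 51.2% of all transcript clusters the higher group mean did not exceed it. This mark matters for the RGS genes, since 6 of the 11 member clusters stayed below it on every array and 2, those of RGS4 and RGS12, were above it on every array. Signals of different transcript clusters come from different probes, so levels were not ranked between genes.

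**Figure D1:**
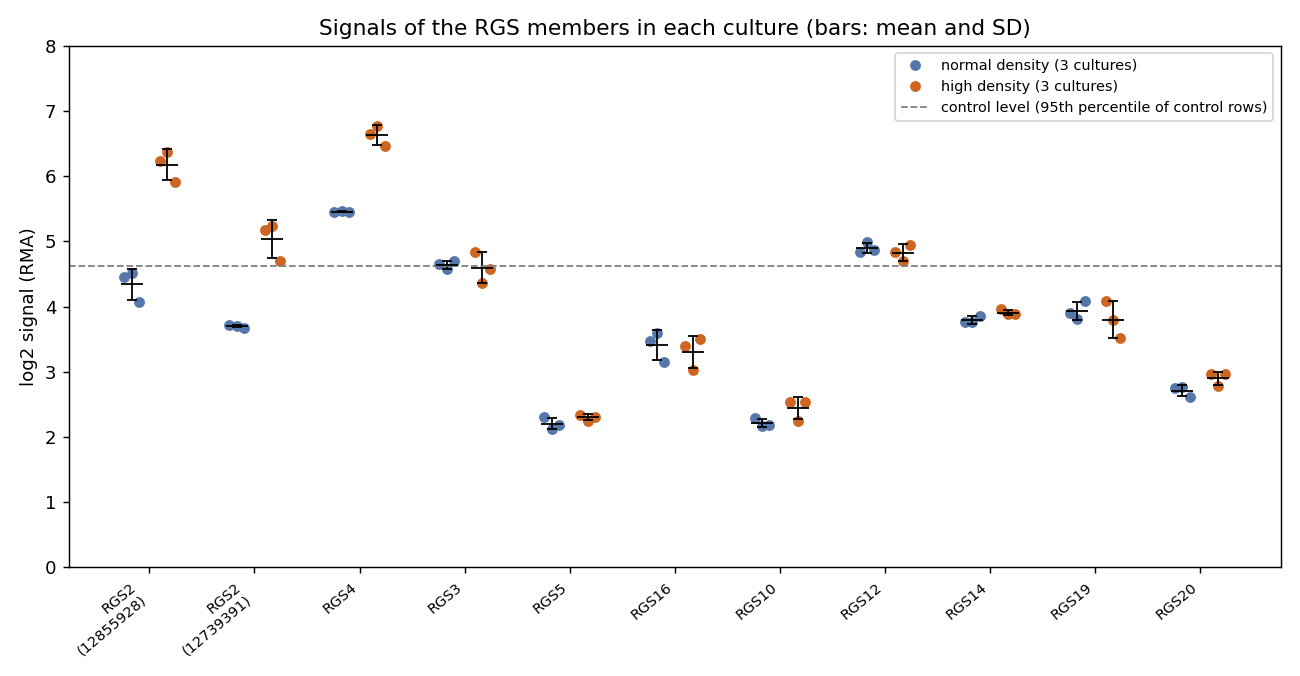
Log2 signal (vertical axis) of each RGS transcript cluster in the 3 normal density (blue) and 3 high density (orange) cultures, with the mean and SD of each density as black bars and the control level of 4.62 as a dashed line. The densities are far apart for both RGS2 transcript clusters and for RGS4, whereas RGS5, RGS10, RGS14, RGS16, RGS19 and RGS20 lie below the dashed line on all arrays.

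RGS2 encodes a small RGS protein that acts preferentially on Gq alpha subunits, which couple receptors to phospholipase C. In the transcript cluster that carries this symbol alone (12855928, mRNA accession NM_001075596), the log2 signals of the normal density cultures were 4.45, 4.51 and 4.07. At high density they were 6.23, 6.38 and 5.92. Every normal density culture was below the control level and every high density culture above it, with a gap of 1.42 between the groups. The means of 4.34 ± 0.23 and 6.17 ± 0.23 (SD, n = 3) gave a log2 change of 1.83 (standard error 0.15, 95% confidence interval 1.47 to 2.19, limma's adjusted p = 2.80e-04).

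The other RGS2 transcript cluster (12739391, ENSBTAT00000026460) is listed with the symbols LOC100848920 and RGS2 together. Its log2 signals were 3.72, 3.71 and 3.68 at normal density and 5.18, 5.24 and 4.70 at high density. Again all normal density cultures lay below the control level and all high density cultures above it, but replicate 3 at high density exceeded it only narrowly. The log2 change was 1.34 (standard error 0.14, 95% confidence interval 1.0 to 1.67, limma's adjusted p = 7.96e-04), between means of 3.70 ± 0.02 and 5.04 ± 0.30 (SD, n = 3). For both transcript clusters every normal density signal was below the control level, so the size of the rise has only a bound. Set against the control level in place of the normal density signals, the high density mean was at least 2.94-fold higher for 12855928 and at least 1.34-fold higher for 12739391, the latter under the fold threshold.

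These transcript clusters belong to different loci in the RefSeq gene table used here (assembly ARS-UCD2.0). That table now lists the accession NM_001075596 under LOC513055, with RGS2 as a synonym, while its gene RGS2 has the gene ID 100848920, which is the LOC number of transcript cluster 12739391. The protein-coding neighbours also differ, with UCHL5 and RGS13 beside RGS2 and with LRRN3 and DNAJB9 beside LOC513055. How far the probes of one transcript cluster also bind the RNA of the other locus was not tested, and neither was the similarity of the loci.

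The RGS2 primers listed for the study's qPCR are given for the same accession as transcript cluster 12855928, and they are shown because that accession now carries the name LOC513055.
RGS2 forward primer: aagcccagctgtggtcagaagcatt
RGS2 reverse primer: tcttcacaggccagccagaattcaa
Both have 25 bases and are printed 5′ to 3′, as designed oligonucleotides with no part set apart. The qPCR measurements themselves were not analysed here.

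When the signals of both RGS2 transcript clusters were averaged before the fit, the log2 change was 1.58 and was called. Whether they changed by unequal amounts cannot be read from these arrays, since both start below the control level and 3 cultures against 3 cannot reach a permutation p under 0.1.

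RGS4 encodes a small R4 protein that acts on Gi as well as Gq alpha subunits. Its transcript cluster (12847652, NM_001046600) had log2 signals of 5.46, 5.47 and 5.45 at normal density and of 6.65, 6.77 and 6.47 at high density. This was the only called member above the control level on all 6 arrays, so its change is not limited by weak signal in the way of RGS2. The normal density cultures were nearly equal, and the lowest high density culture exceeded the highest normal density culture by 1.0. Mean signals of 5.46 ± 0.01 and 6.63 ± 0.15 (SD, n = 3) differed by 1.17 (standard error 0.09, 95% confidence interval 0.96 to 1.38, limma's adjusted p = 1.97e-04).

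Among the 1064 transcript clusters called up in the whole table, 71.2% had a smaller change than RGS4. The changes of RGS2 were not ranked, because they have only bounds. In all 3 called RGS transcript clusters, replicate 3 was the lowest of the high density cultures, which held for 31.3% of the transcript clusters called up in the table. The SD was larger at high than at normal density in 8 of the 11 member clusters, near the share of 68.4% over the table. With any single culture left out, the log2 change remained between 1.70 and 1.96 for 12855928, between 1.24 and 1.51 for 12739391 and between 1.10 and 1.25 for RGS4, and all 3 were still called.

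**Figure D2:**
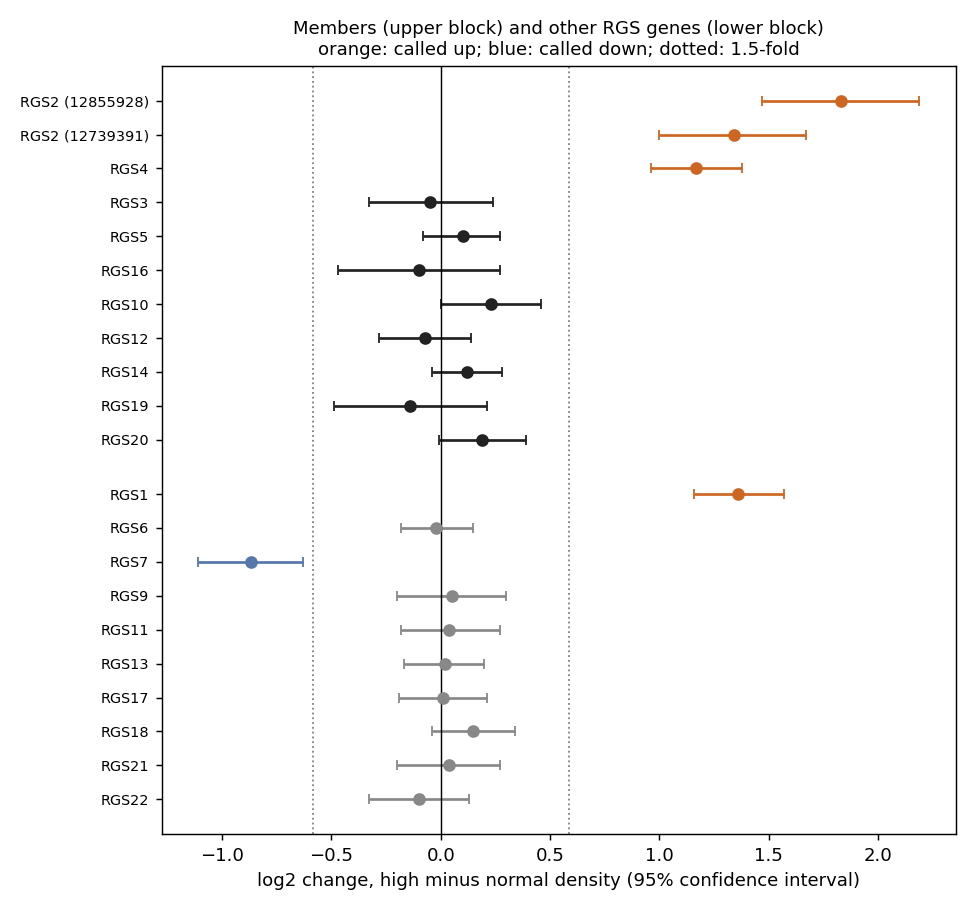
Log2 change from normal to high density (horizontal axis) with its 95% confidence interval for the 11 RGS member clusters (upper block) and the 10 other RGS genes of the table (lower block), with dotted lines at a fold change of 1.5. Orange points are called up (RGS2 with 1.83 and 1.34, RGS4 with 1.17 and RGS1 with 1.36), the blue point RGS7 (−0.87) is called down, and all other intervals lie between the dotted lines.

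The other R4 members showed no comparable rise. RGS3, of which long forms also exist, had log2 signals of 4.66, 4.58 and 4.70 at normal density and of 4.84, 4.37 and 4.58 at high density, on either side of the control level (transcript cluster 12890785). The densities overlapped, with a change of −0.05 (95% confidence interval −0.33 to 0.24, limma's adjusted p = 0.826). This direction rested on 1 culture and was 0.07 without high density replicate 2. For RGS16 (12738588), an R4 protein that is induced in many cells by receptor stimulation, signals were 3.48, 3.59 and 3.15 at normal density and 3.39, 3.03 and 3.50 at high density. The groups overlapped here too, and the change was −0.10 (95% confidence interval −0.47 to 0.27, limma's adjusted p = 0.715), or 0.04 without high density replicate 2.

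RGS5 is best known from pericytes, the mural cells of small blood vessels. Its log2 signals (12840861) were 2.30, 2.13 and 2.18 at normal density and 2.34, 2.25 and 2.31 at high density, below the control level on every array. The change was 0.10 (95% confidence interval −0.08 to 0.27, limma's adjusted p = 0.413).

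No member of the R12 subfamily was called. RGS12, a multidomain scaffold, was the only one above the control level on all arrays, with log2 signals of 4.84, 4.99 and 4.87 at normal density and of 4.84, 4.70 and 4.95 at high density (12873617). The densities overlapped, and the change was −0.07 (95% confidence interval −0.28 to 0.14, limma's adjusted p = 0.625).

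RGS14, a scaffold that also binds Ras-like proteins, gave 3.76, 3.76 and 3.86 at normal density and 3.96, 3.89 and 3.88 at high density (12880396). All high density values were higher, but only by a gap of 0.02, and the change of 0.12 was not called (95% confidence interval −0.04 to 0.28, limma's adjusted p = 0.28). RGS10, a small R12 protein known from immune cells, had signals of 2.29, 2.17 and 2.19 against 2.54, 2.25 and 2.54 at high density (12823075). High density replicate 2 fell among the normal density cultures, while the other 2 lay above them. The change of 0.23 (95% confidence interval 0.00 to 0.46) had an unadjusted p of 0.0499 and an adjusted p of 0.155 by limma. Without high density replicate 2 the change was 0.33 with an adjusted p of 0.0163 by limma, still under the fold threshold.

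The RZ members RGS19 and RGS20 were weak on all arrays. RGS19 (12716595) had log2 signals of 3.91, 3.81 and 4.09 at normal density and of 4.09, 3.79 and 3.52 at high density. It overlapped widely, with a change of −0.14 (95% confidence interval −0.49 to 0.21, limma's adjusted p = 0.569). RGS20 (12723454) had 2.75, 2.77 and 2.61 at normal density and 2.96, 2.79 and 2.96 at high density. Its groups were separated by 0.02, and the change of 0.19 was not called (95% confidence interval −0.01 to 0.39, limma's adjusted p = 0.166).

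The 95% confidence intervals of all 8 members that were not called lay inside the fold threshold of 1.5, between −0.49 and 0.46 on the log2 scale, so a change in the array signal beyond that size was outside them. For the 6 that stayed below the control level this describes the signal of the array, which can be flat where a transcript is too scarce to be measured. At any fold change, 3 member clusters had an adjusted p below 0.05, against 19.1% of the table. The cultures of the densities did not overlap in 5 of the 11 member clusters, against 37.3% of all transcript clusters. By subfamily, 3 of 6 transcript clusters of R4, none of 3 of R12 and none of 2 of RZ were called, and these counts are too small to compare the subfamilies.

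Of the other RGS genes in the table, 2 of 10 were called, 1 in each direction, with a median change of 0.03. Over all transcript clusters 7.49% were called, 3.97% up and 3.51% down. With weak transcript clusters left out, 1 of these calls remained. RGS1, an R4 protein best known from lymphocytes, had log2 signals of 2.83, 2.78 and 3.02 at normal density and of 4.30, 4.28 and 4.15 at high density. The log2 change was 1.36 with a standard error of 0.09 (adjusted p = 1.01e-04 by limma), although every array was below the control level. Markers of leukocytes were read beside it, and all 8, PTPRC, CD3E and CD79A among them, were below the control level on every array and not called. Their changes lay between −0.22 (PTPRC) and 0.41 (CD14), with a median of −0.01. For CD14 every high density culture was above the normal density cultures (adjusted p = 0.0553 by limma). The summed linear signal of the 8 markers was between 76.3 and 79.9 at normal density and between 75.1 and 88.1 at high density.

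RGS7 belongs to the R7 subfamily, whose members work in a complex with the G beta subunit GNB5 and a membrane anchor. Its signals were 5.60, 5.62 and 5.77 at normal density and 4.68, 4.99 and 4.72 at high density. All were above the control level, but 4.68 and 4.72 only narrowly. The change of −0.87, with a standard error of 0.10 (adjusted p = 0.00124 by limma), was opposite to that of RGS2, RGS4 and RGS1. The anchor RGS7BP was called up with a change of 0.68 and a standard error of 0.08 (adjusted p = 0.0014 by limma), but it had a mean signal of 2.34 at normal density and of 3.02 at high density, both below the control level. GNB5 had a change of 0.28 at an adjusted p of 0.0269 by limma and stayed under the fold threshold. RGS6, of the R7 subfamily, and RGS17, of the RZ subfamily, were above the control level on all arrays and were not called. Their changes were −0.02 (95% confidence interval −0.18 to 0.15) and 0.01 (95% confidence interval −0.19 to 0.21).

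In the RefSeq gene order, RGS2, RGS13, RGS1, RGS21 and RGS18 follow each other without another protein-coding gene between them. Of this row RGS2 (12739391) and RGS1 were called up, with changes of 1.34 and 1.36. RGS13, RGS21 and RGS18, the other genes of the row, were below the control level on all arrays and were not called, with values of 0.02, 0.04 and 0.15. Likewise RGS5 and RGS4 are direct neighbours, and RGS4 rose by 1.17 whereas the change of RGS5 was 0.10. The differences between neighbours were not tested.

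**Figure D3:**
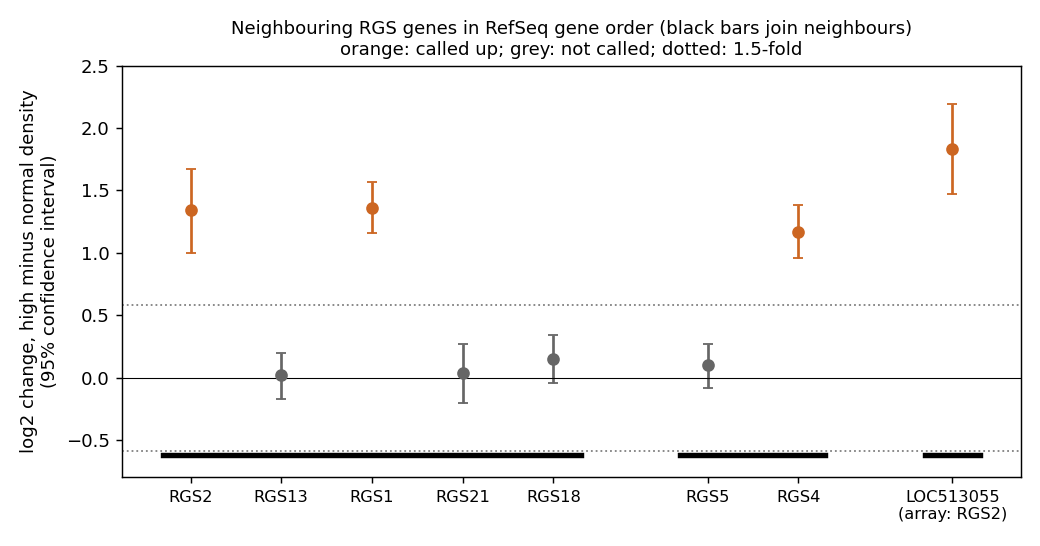
Log2 change from normal to high density (vertical axis, 95% confidence intervals) of RGS genes that are neighbours in RefSeq order, joined by black bars, and of LOC513055, which the array names RGS2. Within the row from RGS2 to RGS18 only RGS2 (1.34) and RGS1 (1.36) are called (orange), and in the pair RGS5 and RGS4 only RGS4 (1.17).

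The genes around the RGS proteins were described from 8 lists of G protein signaling, with a median change of 0.07. In them 23 of 114 transcript clusters were called (20.2%, against 7.49% of the table). Of these, 17 were up and 6 down, against 3.97% and 3.51% of the table. Receptors gave 13 of these calls. Their list holds genes that were known to differ in these cultures, so the share of 20.2% is not independent of them. The alpha subunits, on which RGS proteins act, held 1 call among 16, that of GNAL with a change of 0.78 between signals below the control level. The Gq and Gi subunits on which RGS2 and RGS4 act were not called. GNAQ had log2 signals of 8.53, 8.54 and 8.61 at normal density and of 8.61, 8.65 and 8.64 at high density, a change of 0.07. The value was −0.02 for GNA11, the close relative of GNAQ, 0.17 for GNAI1, −0.04 for GNAI2 and 0.06 for GNAI3, and −0.09 for GNAS, the stimulatory subunit that FSH signaling uses. All of these were above the control level on every array.

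Among 17 transcript clusters of beta and gamma subunits, only GNG4 was called, up by 0.87 between signals below the control level. The receptor kinases and arrestins, which end receptor signaling at the receptor itself, held 2 calls among 9. ARRB1, the arrestin beta 1 gene, rose from 4.78 ± 0.04 to 6.48 ± 0.07 (SD, n = 3), a change of 1.70 with a standard error of 0.07 (adjusted p = 2.05e-05 by limma). GRK5, a receptor kinase, rose by 0.77. ARRB2 had a value of −0.39 (adjusted p = 0.0333 by limma), under the fold threshold. None of the 5 transcript clusters of GoLoco proteins and exchange factors was called, with changes between −0.46 and 0.39, and RGS7BP was the only call among 13 of RGS partners and other proteins with an RGS domain.

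The effectors downstream of G proteins held 3 calls among 17. Of the adenylyl cyclases, which make cAMP, ADCY1 was called up with a change of 1.09. Its normal density cultures were all below the control level, so the size of this rise has only a bound. ADCY6 and ADCY2 were called down with −0.72 and −0.62, above the control level on every array. ADCY2 lay near the fold threshold (0.585 on the log2 scale), and its adjusted p of 0.0111 by limma would miss a limit of 0.01. PLCB1, a phospholipase C that Gq activates, had a value of −0.52, with all cultures above the control level. This was below the fold threshold, at an adjusted p of 0.00144 by limma.

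Of the receptors, 13 of 27 were called, 10 up and 3 down, the most calls of any of the 8 lists. FSHR, the receptor of the FSH in the medium, changed by −2.21, LHCGR by −1.20 between signals below the control level, and NPY1R by −0.75. LPAR1 (1.98) and PTGFR (1.01), the receptor of prostaglandin F2 alpha, were called up and above the control level on every array. CXCR4 (2.64), a chemokine receptor, EDNRB (2.22), an endothelin receptor, and F2RL1 (0.94) were called up as well. Their normal density cultures were all below the control level and their high density cultures above it, so the sizes of these rises have only bounds. The rises of S1PR3 (1.20), AGTR1 (1.17), PTGER2 (0.85), PTGER3 (0.82) and SSTR2 (0.62) stood at signals mostly below the control level. The list holds genes that were known to differ in these cultures, so its count is not independent of them.

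**Figure D4:**
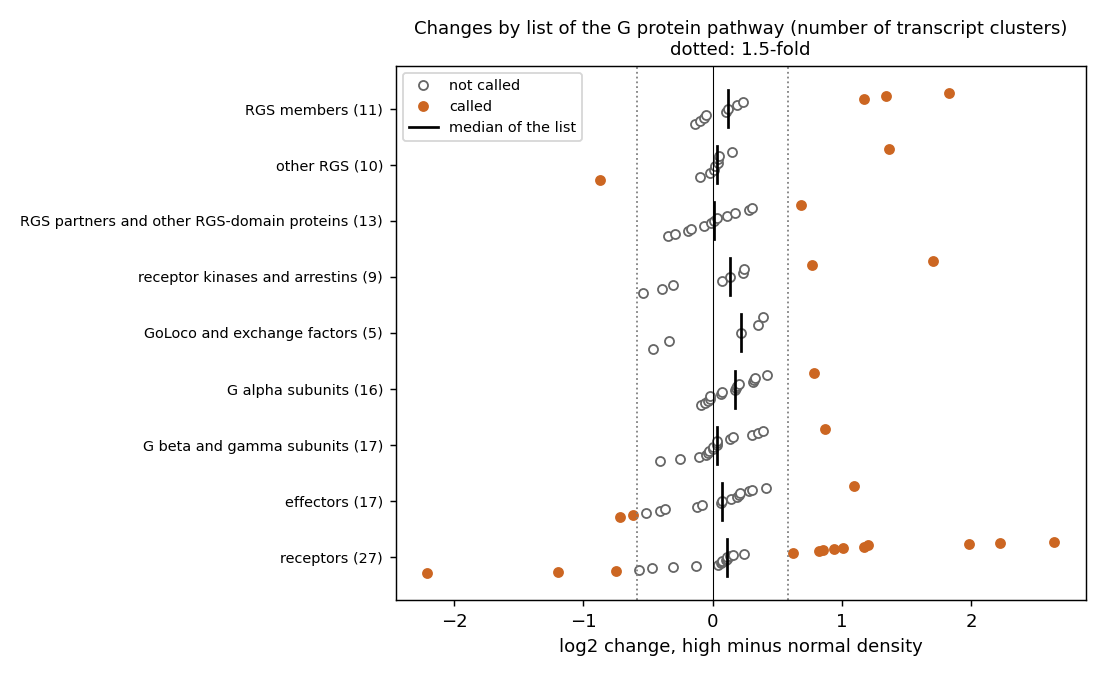
Log2 change from normal to high density (horizontal axis) of each transcript cluster in the RGS members and in 8 lists of G protein signaling, with called transcript clusters filled, those not called open, the median of each list as a black line and dotted lines at a fold change of 1.5. The highest and the lowest point are receptors (CXCR4 with 2.64 and FSHR with −2.21), whereas the alpha subunits hold a single filled point.

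By overall pattern, the genes nearest to each called RGS transcript cluster were sought as those with the smallest Euclidean distance between log2 signals centred on their mean over the 6 cultures. For RGS2 at 12855928 these were H19, a non-coding RNA of the imprinted IGF2 region, SLC2A3, a glucose transporter, and ANGPT2, an angiopoietin, at distances of 0.246, 0.265 and 0.273. For RGS2 at 12739391 they were PIRT, BHLHE41 and TRPC4, at 0.169, 0.208 and 0.222. For RGS4 they were TOM1L1, ZNF564 and JSP.1, at 0.105, 0.108 and 0.114. The distances describe 6 cultures in 2 groups, and no test was run on them.

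The label of the cells was read from marker genes. Of 11 granulosa markers 8 were above the control level on all arrays, FOXL2, GATA4, NR5A1 and CYP11A1 among them. Of the 11, 7 were called, with CYP19A1 (−2.80), FSHR (−2.21), INHA (−2.16), INHBA (−1.37), FST (−0.82) and FOXL2 (−0.65) down and HSD17B1 (1.26) up. GATA4, NR5A1, CYP11A1 and AMH were not called. CYP19A1, the aromatase gene, was below the control level in all high density cultures. HSD17B1 was below it in all normal density cultures, so the sizes of both changes have only bounds. The summed linear signal of the granulosa markers was between 5302 and 5834 at normal density and between 4068 and 4281 at high density. Such a sum is carried by the strongest probe signals, here CYP11A1, FST and INHBA, and does not measure an amount of cells. Markers of pericytes and smooth muscle differed in direction. Of 9, ACTA2 (1.15), PDGFRB (0.94), CSPG4 (0.72) and ABCC9 (0.78, below the control level on all arrays) were called up. MYH11 (−0.67), above the control level on 1 array only, was called down. DES (0.50), CNN1 (0.23), KCNJ8 (−0.06) and MCAM (−0.37) were not called. The summed linear signal of these 9 markers was between 421 and 451 at normal density and between 676 and 755 at high density. Of 7 endothelial markers none was called, and 6, PECAM1 and CDH5 among them, were below the control level on every array, with summed signals of 77.1 to 80.5 and 86.5 to 94.3. Of the theca markers INSL3 was called up by 1.82 and CYP17A1 was below the control level on all arrays, the pair having summed signals of 149 to 161.9 and 483 to 592. None of 4 red blood cell and 5 surface epithelium markers was called, with summed signals of 34.1 to 35.0 and 33.03 to 41.2 for the former and of 124.9 to 133 and 139 to 147 for the latter. CDH1 and MSLN of the surface epithelium were above the control level on every array. The other surface epithelium markers and all red blood cell markers were below it on every array. The part of any other cell type in the RGS changes was not tested, and in these bulk RNA samples more cells of a type and more RNA per cell cannot be told apart.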

How the data were processed

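RNA of 6 GC cultures, 3 per density, was hybridised to Affymetrix Bovine Gene 1.0 ST arrays. Scans were summarised by the authors with RMA in Expression Console, and the deposited table holds log2 signals per transcript cluster and culture. The genome build behind its annotation is not given in the sources used here. The table, with 26773 rows and 0 columns of other samples, was used as deposited. Symbols and accessions are those of the table, and all 11 member clusters were matched to the RefSeq table (ARS-UCD2.0), 7 of them by accession and the others by symbol or gene ID.

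All transcript clusters were fitted with lmFit and eBayes of limma (version 3.58.1, R version 4.3.3; two-sided, no covariates), with Benjamini-Hochberg adjustment over the table and the thresholds of the methods. Errors are SD or standard errors, and 6 arrays limit the precision. The script was checked on simulated data. Named genes are the 10 members, the called genes of the lists and the 3 nearest genes of each called member. Uncalled list genes with values (GNB5, RGS6, RGS17, RGS13, RGS18, RGS21, the G alpha genes, ARRB2 and PLCB1) and the named markers were chosen after their values were seen. Gene lists count transcript clusters with a single symbol. The members, lists and tests were chosen with earlier results of these data known. Alternatives were analysis of variance (ANOVA) as the methods name it, which for a pair of groups equals an equal-variance test without limma's shared spread, variance models, array weights, scalings, filters, thresholds, the replicate block and leaving out each culture. Figures were drawn with matplotlib 3.10.9.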

Additional observations from a re-analysis of the deposited data

How the results depend on the processing

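The same 3 member clusters, both of RGS2 and that of RGS4, were called in all 17 alternatives, including the 6 that leave out a culture. Another of the 17 is the filter on weak signals, which both RGS2 transcript clusters passed only through their high density cultures, so it adds no support for them. The only members whose direction turned were RGS3, at 0.07 without high density replicate 2 (range −0.17 to 0.07 with each culture left out), and RGS16, at 0.04 without that culture (range −0.23 to 0.04) and at 0.01 with array weights, and neither was called in any alternative. The count of called transcript clusters in the 8 lists was 23. It was 13 when weak transcript clusters were left out, 9 when limma tested against the fold threshold itself and 43 without a fold threshold, since these alternatives test fewer transcript clusters or move the threshold. It stayed within 1.5 times the count in the other 14. Whether same-numbered cultures shared a cell pool is not stated, and the cultures were treated as unpaired. Across transcript clusters, deviations from the group means correlated at 0.0459, −0.0457 and −0.0406 between same-numbered cultures. Between differently numbered cultures the correlations ran from −0.0711 to 0.0897, and 3 cultures per density cannot settle the pairing. With the replicate block 3 member clusters were called. The standard errors were then 0.08 for 12855928, 0.12 for 12739391 and 0.09 for RGS4, against 0.15, 0.14 and 0.09 without it. Weak signal limits RGS5, RGS10, RGS14, RGS16, RGS19 and RGS20, which a filter at the control level removed.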
